A study of Danio rerio with 4 samples.

Results

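Transcription factors that mark amacrine and horizontal cells, the inhibitory interneurons of the retina, were followed in zebrafish retinas at 48 hours post fertilization (hpf) after knockdown of id2a. The genes were chosen by symbol in the authors' table: tfap2a, tfap2b, ptf1a, barhl2, lhx1a and onecut1, together with any row named prox1 or prox1a. This gave 7 genes with 17 transcripts, of 26355 genes and 46226 transcripts with a count in the series. The rows named prox1 are the gene that a RefSeq gene list (assembly GRCz12tu) now calls prox1a. All 17 transcripts passed the filter on low counts.

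The study sequenced poly-A selected RNA of dissected retinas, with 1 microgram of total RNA per condition, in 2 biological replicates per group. In the knockdown group, embryos carried the id2a morpholino, an antisense oligonucleotide that interferes with the expression of its target. In the control group they carried the Id2aMM morpholino. Every embryo thus carried a morpholino, and the labels give neither the strain nor the number of embryos behind a library.

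Id2a is a helix-loop-helix protein without a DNA-binding domain that holds E proteins away from DNA. Ptf1a, the only basic helix-loop-helix factor among the 7, binds DNA together with an E protein. In the vertebrate retina Ptf1a directs progenitors towards amacrine and horizontal cell fates. In the mouse it acts downstream of Foxn4 and upstream of factors that include Prdm13, Tfap2a and Tfap2b. Prox1, Onecut1 and Lhx1 are known from the mouse for horizontal cells, and Barhl2 for amacrine subtypes and ganglion cells.

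Libraries held 42980929 to 54710062 alignments of 1 mate. The transcript of the targeted gene was not lower: id2a, by its transcript with the smallest p, was at 41.6 and 36.8 CPM (counts scaled to library size) in knockdown replicates 1 and 2 and at 32.7 and 20.8 CPM in control replicates 1 and 2 (log2 fold change 0.55, adjusted p = 0.231 by edgeR). Leaving out control replicate 1 gave 0.94, and leaving out control replicate 2 gave 0.26. Because a morpholino can act without lowering its target RNA, and the labels do not say how this one acts, these levels leave the labels unchecked. All 20 listed retinal markers were detected in each library, of which 2 rose and 1 fell. Of 20875 tested genes 1189 fell in the knockdown (5.70%) and 494 rose (2.37%), so 8.06% passed in either direction. Without control replicate 1, 0 transcripts of the whole table passed with edgeR, where 8160 had an unadjusted p under 0.05, so no edgeR call given here held without that library.

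The AP-2 genes tfap2a and tfap2b and the homeobox gene barhl2 fell in the knockdown, to levels 6.21% to 39.1% of the control mean in single libraries. Ptf1a, prox1 and lhx1a had lower values in each knockdown library than in each control library but did not pass the test. The values of onecut1 were higher in each knockdown library than in each control library, and it did not pass either. With edgeR's quasi-likelihood test at an adjusted p of 0.05, 3 of 7 genes therefore fell, 0 rose and 4 did not pass, where 5.70% of all tested genes fell, 2.37% rose and 8.06% passed in either direction. Before adjustment 5 were lower and 1 was higher at a p under 0.05, where 17.9% of all tested genes were lower and 12.9% higher. DESeq2 called 3 lower and 1, onecut1, higher, against 10% (2012 of 20059) and 6.49% (1301) of all genes. On the authors' scores limma called 3 lower and 0 higher, against 6.56% and 2.86% of all genes with a pseudocount of 100, and 3.63% and 1.57% with 10. The median log2 fold change over the 7 genes was -1.72, against -0.06 over all tested genes. RNA of whole retinas cannot tell fewer cells of a type from less RNA per cell.

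**Figure D1:**
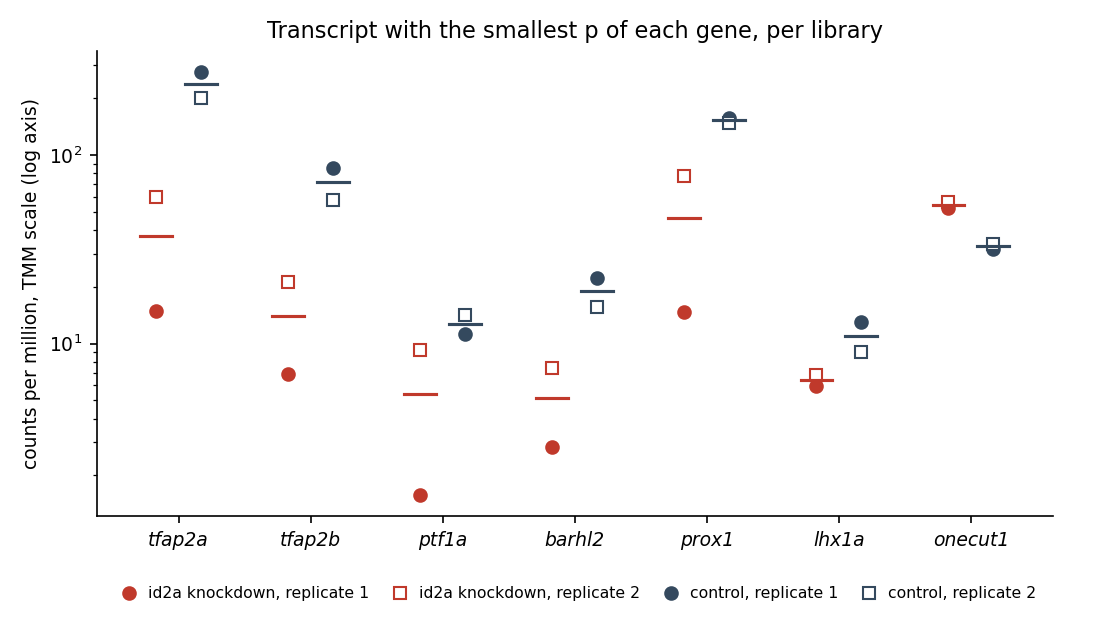
CPM on the TMM scale (log axis) of the transcript with the smallest p of each gene, with knockdown libraries in red left of control libraries in dark blue; horizontal bars are group means of 2 libraries. For 6 genes each knockdown value lies below each control value, and for onecut1 above, where 33.9% of all tested genes have both knockdown libraries below both controls and 31.8% above.

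The AP-2 proteins are DNA-binding factors of amacrine and horizontal cells that also act in the epidermis and the neural crest. Tfap2a (gene ENSDARG00000059279), on chromosome 24 in the authors' table, stood at 14.8 and 59.7 CPM in knockdown replicates 1 and 2 and at 276 and 201 CPM in control replicates 1 and 2. Both knockdown libraries were far below both controls, with replicate 1 the lower. The mean over 2 libraries was 37.2 CPM in the knockdown and 238 CPM in the control. Its log2 fold change was -2.68 with an SE of 0.57 (adjusted p = 0.0365 by edgeR).

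Its paralog tfap2b (ENSDARG00000012667, chromosome 20) stood at 6.85 and 21.2 CPM in knockdown replicates 1 and 2, against 85.8 and 57.5 CPM in control replicates 1 and 2. Again the groups did not overlap and knockdown replicate 1 was lowest. The means were 14.0 ± 10.1 CPM in the knockdown and 71.7 ± 20.0 CPM in the control (SD, n = 2 each). Its log2 fold change was -2.35 with an SE of 0.49 (adjusted p = 0.0351 by edgeR).

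Barhl2 (ENSDARG00000070129, chromosome 6) encodes a BarH-like homeodomain protein. By its transcript with the smallest p it was at 2.81 and 7.41 CPM in knockdown replicates 1 and 2 and at 22.3 and 15.7 CPM in control replicates 1 and 2. The groups were separate, and the spread within each was smaller than the gap between the means. These were 5.11 ± 3.25 CPM in the knockdown and 19.0 ± 4.67 CPM in the control (SD, n = 2 each). Its log2 fold change was -1.88 with an SE of 0.44 (adjusted p = 0.0452 by edgeR).

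In the edgeR fit as reported, these 3 calls lay close to the threshold and rested on both control libraries. With DESeq2, which called more of all genes, tfap2a, tfap2b and barhl2 had adjusted p-values of 0.0255, 3.70e-06 and 0.000286. With limma at a pseudocount of 10 they had 0.0432, 0.0465 and 0.0491. Without control replicate 1 the log2 fold changes of tfap2a, tfap2b and barhl2 were -2.40, -2.01 and -1.58 (edgeR adjusted p = 0.163, 0.163 and 0.185). Without control replicate 2 they were -2.88, -2.61 and -2.11 (edgeR adjusted p = 0.0900, 0.0826 and 0.0974). Without knockdown replicate 1 they were -1.98, -1.74 and -1.34, and without knockdown replicate 2 they were -4.01, -3.38 and -2.75, and all passed. Estimated counts, which divide a read among the transcripts it matches, were also summed per gene. On these sums tfap2a passed at -2.56 (adjusted p = 0.0462 by edgeR), whereas tfap2b at -2.15 and barhl2 at -1.81 did not (0.0546 and 0.0583). In that fit 5.03% of genes passed lower and 3.17% higher.

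Ptf1a (ENSDARG00000014479, chromosome 2), named for its role in the pancreas, showed the widest gap between the knockdown libraries. It was at 1.57 and 9.19 CPM in knockdown replicates 1 and 2 and at 11.2 and 14.2 CPM in control replicates 1 and 2. Replicate 2 of the knockdown was just below the lower control, while replicate 1 was at 12.4% of the control mean. The log2 fold change was -1.23 (SE 0.64, adjusted p = 0.258 by edgeR). Leaving out knockdown replicate 2 gave -3.01 (edgeR adjusted p = 7.38e-05), and leaving out knockdown replicate 1 gave -0.45 (edgeR adjusted p = 0.613).

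Prox1 (ENSDARG00000055158, chromosome 17), a prospero-type homeodomain factor also known from lens fibres, also differed between the knockdown libraries. It stood at 14.7 and 77.4 CPM in knockdown replicates 1 and 2, against 157 and 148 CPM in control replicates 1 and 2. The controls were close together and the knockdown libraries far apart, both below them. The log2 fold change of -1.72 did not pass (SE 0.62, adjusted p = 0.120 by edgeR). Leaving out knockdown replicate 2 gave -3.37 (edgeR adjusted p = 7.04e-06), and leaving out knockdown replicate 1 gave -0.96 (edgeR adjusted p = 0.119). With no filter on low counts prox1 passed (-1.70, adjusted p = 0.0255 by edgeR), where 5028 of 45879 transcripts passed. The authors' deposited table also calls prox1, with a log2 fold change of -1.71 and an adjusted p of 0.0121. Only 3 of the 14 alternative fits called it. With DESeq2 it did not pass (adjusted p = 0.242), nor with limma at pseudocounts of 100 and 10 (adjusted p = 0.0761 and 0.0928). On the summed reads of the gene it did not pass either (adjusted p = 0.141 by edgeR).

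Lhx1a (ENSDARG00000014018, chromosome 15), a LIM homeobox gene of horizontal cells, was at 5.94 and 6.83 CPM in knockdown replicates 1 and 2 and at 13.0 and 9.01 CPM in control replicates 1 and 2. Here the knockdown libraries were close together and the controls differed. The log2 fold change was -0.78 (SE 0.28, adjusted p = 0.121 by edgeR), and none of the 14 alternative fits with edgeR, DESeq2 or limma called it (adjusted p between 0.105 and 0.412).

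Onecut1 (ENSDARG00000007982, chromosome 18) encodes a factor with a cut domain and a homeodomain. It was at 52.3 and 56.6 CPM in knockdown replicates 1 and 2 and at 31.6 and 33.9 CPM in control replicates 1 and 2. Replicates lay close together in each group and the groups did not overlap. The means were 54.4 ± 3.08 CPM in the knockdown and 32.7 ± 1.61 CPM in the control (SD, n = 2 each), with a log2 fold change of 0.73 (SE 0.21, adjusted p = 0.0728 by edgeR). It passed in 3 of the 14 alternative fits. With DESeq2 it had an adjusted p of 0.0250. With edgeR the summed reads of the gene gave 0.84 (adjusted p = 0.0489), and reads split over transcripts gave 0.80 (adjusted p = 0.0472). Both of these edgeR fits used the same split reads of its only transcript, so they are not separate evidence. With limma it did not pass (adjusted p = 0.0648 and 0.0741 with pseudocounts of 100 and 10). Over the 14 alternative fits its log2 fold change lay between 0.68 and 0.84.

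Most of these genes have several annotated transcripts, which share reads to differing degrees and are not independent. Of the 17 transcripts 9 passed lower and 0 higher with edgeR, where 4.97% of all tested transcripts passed lower, 2.06% higher and 7.03% in either direction. Before adjustment onecut1 was higher at a p under 0.05, and DESeq2 called it. Both knockdown libraries lay below both controls for 16 of the 17 transcripts and above for 1, against 31.5% and 29.2% of all tested transcripts. The 3 tfap2a transcripts had log2 fold changes from -2.68 to -2.65, and all passed. The longest of them, ENSDART00000082346, held 41.8% and 42.4% of the gene's split reads in knockdown replicates 1 and 2, and 41.3% and 40.7% in control replicates 1 and 2. That share was about the same in all 4 libraries. Reads that match several transcripts are divided among them, so the share cannot show the make-up of tfap2a by transcript.

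Of the 6 tfap2b transcripts 4 passed. The 2 that did not, ENSDART00000138860 and ENSDART00000135380, are short models of 770 and 822 nucleotides with log2 fold changes of -1.78 and -1.92 (edgeR adjusted p = 0.106 and 0.0683). Transcript ENSDART00000138860 held 4.37% and 6.71% of the gene's split reads in knockdown replicates 1 and 2, and 4.63% and 4.34% in control replicates 1 and 2. Its share was highest in knockdown replicate 2, and the groups overlapped. Both barhl2 transcripts passed (-1.90 and -1.88). The longer one, ENSDART00000102661, held 83.0% to 84.2% of the gene's split reads, where reads that match both transcripts are divided between them. It was at 8.40 and 23.6 CPM in knockdown replicates 1 and 2 and 70.8 and 48.9 CPM in control replicates 1 and 2. The pair of prox1 transcripts took 49.5% to 50.5% of that gene's split reads each in every library, so the files do not separate them. The authors' deposited table calls 11 of the 17 transcripts lower, namely 3 of tfap2a, 4 of tfap2b, 2 of barhl2 and 2 of prox1. Of all transcripts in the authors' deposited table, 5.69% are called lower and 8.89% in either direction.

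**Figure D2:**
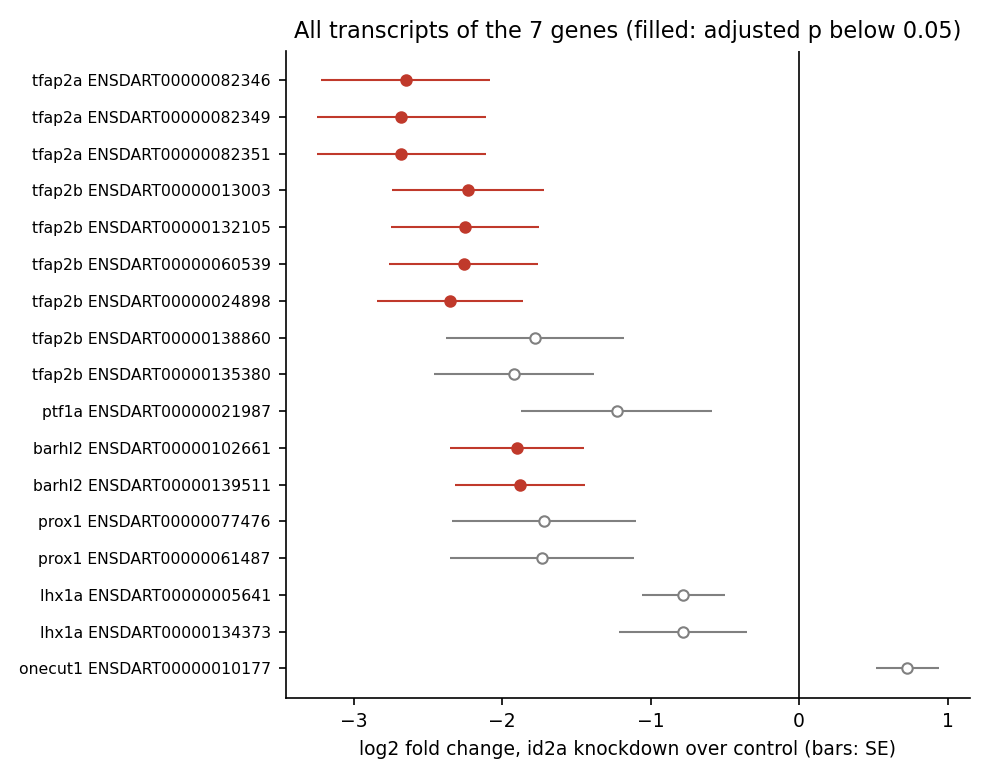
Log2 fold change of the knockdown over the control for all 17 transcripts, with SE from the edgeR test as bars; filled points have an adjusted p below 0.05. The 9 filled points belong to tfap2a, tfap2b and barhl2, and onecut1 is the point right of 0.

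For 5 of the 7 genes the knockdown libraries differed from each other by at least 2.63-fold. Relative to the control mean, knockdown replicates 1 and 2 held 6.21% and 25.1% of tfap2a, 9.55% and 29.5% of tfap2b, and 14.8% and 39.1% of barhl2. They held 9.64% and 50.8% of prox1. The ratio of replicate 2 to replicate 1 was 4.04 for tfap2a, 3.09 for tfap2b, 5.84 for ptf1a, 2.63 for barhl2 and 5.27 for prox1. It was 1.15 for lhx1a and 1.08 for onecut1. Over the 24984 transcripts averaging at least 2 CPM the median ratio was 1.01, and 4.31% had a ratio of at least 2. For tfap2a, tfap2b and barhl2 even the higher knockdown library was at most 39.1% of the control mean, whereas for ptf1a it reached 72.2%.

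**Figure D3:**
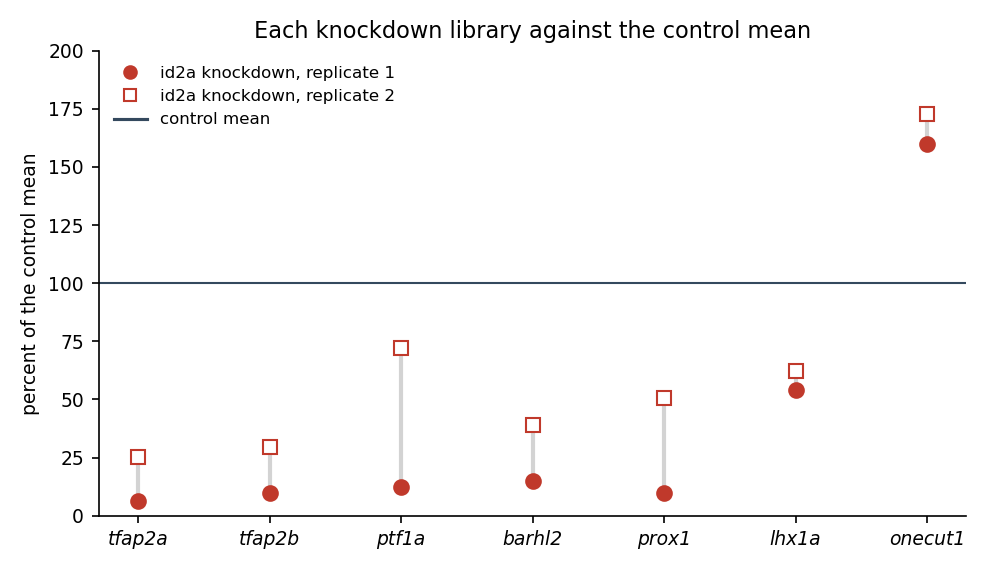
Level of each gene in knockdown replicate 1 (filled circles) and replicate 2 (open squares) as a percent of the control mean (line at 100). The symbols lie far apart for ptf1a and prox1 (12.4% and 72.2%, 9.64% and 50.8%), and close together for lhx1a and onecut1.

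Levels of different genes were compared per length, as RPKM (split reads scaled to transcript length and library size) and summed per gene. In the control the order of the mean levels was tfap2a, prox1, tfap2b, barhl2, onecut1, ptf1a and lhx1a. Tfap2a averaged 33.1 ± 28.5 RPKM in the knockdown and 205 ± 47.7 RPKM in the control (SD, n = 2 each), which made it the 421st of 20875 tested genes in the control. At the other end lhx1a averaged 7.05 ± 0.277 RPKM in the knockdown and 11.8 ± 1.95 RPKM in the control. Library values of prox1 and tfap2b, of tfap2b and barhl2, and of onecut1 and ptf1a overlapped in the control, so these neighbours cannot be ordered.

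In the knockdown onecut1 was highest. It had 55.0 and 60.5 RPKM in knockdown replicates 1 and 2, and 33.1 and 35.5 RPKM in control replicates 1 and 2, where it had rank 5 of the 7. No other knockdown value overlapped it: the next gene, tfap2a, had 12.9 and 53.2 RPKM there. Prox1 averaged 31.3 ± 30.3 RPKM in the knockdown and 102 ± 4.39 RPKM in the control (SD, n = 2 each). All other neighbours in the knockdown order had overlapping library values.

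**Figure D4:**
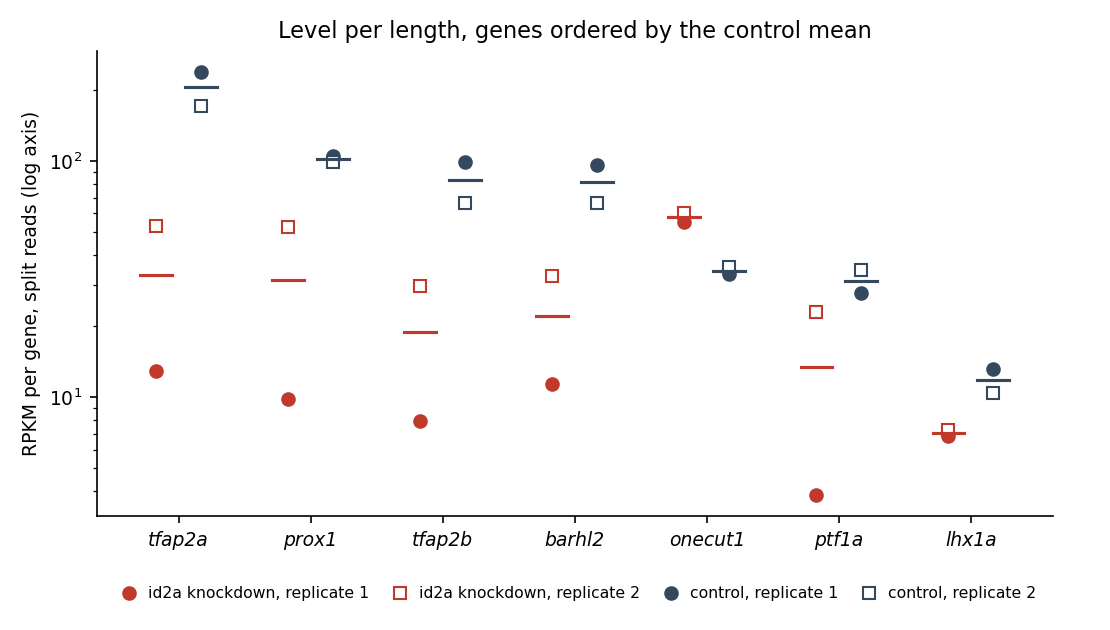
RPKM per gene from split reads (log axis), genes ordered by the control mean, with knockdown libraries in red left of control libraries in dark blue and bars for group means. Onecut1 is highest of the 7 in the knockdown (57.7 RPKM) and has rank 5 in the control (34.3 RPKM).

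Paralogs of the 7 genes were listed by family. Of 12 tested paralogs 3 fell (5.70% of all tested genes), 0 rose (2.37%) and 9 did not pass, with a median log2 fold change of -0.76. Before adjustment 6 were lower and 1 higher at a p under 0.05 (17.9% and 12.9% of all tested genes), and DESeq2 called 4 lower and 1 higher (10% and 6.49% of all genes). On the scores limma called 3 lower and 0 higher with a pseudocount of 100 (6.56% and 2.86% of all genes). With 10 it called 2 lower and 0 higher (3.63% and 1.57%). The paralog that fell with the smallest p was prox1b. It was at 3.05 and 4.80 CPM in knockdown replicates 1 and 2 and at 21.1 and 14.7 CPM in control replicates 1 and 2 (log2 fold change -2.19, SE 0.33, adjusted p = 0.0213 by edgeR). Its knockdown libraries were both far below the controls and closer together than those of prox1. The third gene of that family, prox2, was at 4.01 and 1.67 CPM in the knockdown and 0.870 and 0.868 CPM in the control, and did not pass (1.70, edgeR adjusted p = 0.0750). It passed when knockdown replicate 2 was left out (2.21, edgeR adjusted p = 0.00519).

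Among the AP-2 genes, tfap2e fell, at 0.811 and 1.83 CPM in knockdown replicates 1 and 2 and 8.64 and 4.49 CPM in control replicates 1 and 2 (log2 fold change -2.29, edgeR adjusted p = 0.0355). Tfap2c did not pass, with 15.9 and 51.1 CPM in the knockdown and 111 and 95.3 CPM in the control (-1.62, edgeR adjusted p = 0.0730). With knockdown replicate 2 left out tfap2c passed at -2.70 (edgeR adjusted p = 7.26e-05), and with knockdown replicate 1 left out it was at -1.0 (edgeR adjusted p = 0.106). The groups overlapped for TFAP2D, with 19.3 and 47.2 CPM in the knockdown and 27.1 and 30.9 CPM in the control (0.20, edgeR adjusted p = 0.778), and its direction turned to -0.58 with knockdown replicate 2 left out. Within the Onecut family, onecutl fell, at 7.85 and 14.6 CPM in knockdown replicates 1 and 2 and 36.2 and 27.6 CPM in control replicates 1 and 2 (log2 fold change -1.50, edgeR adjusted p = 0.0397). That is the opposite direction to the values of onecut1, but the difference between the genes was not tested. ONECUT2 and onecut3 did not pass (0.08 and -0.74, edgeR adjusted p = 0.883 and 0.120), and ONECUT2 was at -0.25 with knockdown replicate 2 left out.

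The BarH-like genes barhl1.1 and barhl1.2 had log2 fold changes of -1.25 and -0.69 (edgeR adjusted p = 0.143 and 0.227), and barhl1.2 passed with knockdown replicate 2 left out (-1.22, edgeR adjusted p = 0.0415). The LIM homeobox genes lhx1b and lhx5 were at no more than 4.17 CPM in any library, with overlapping groups (-0.79 and -0.47, edgeR adjusted p = 0.532 and 0.728). Both turned direction with control replicate 1 left out, to 0.64 and 1.14, and lhx5 also with knockdown replicate 2 left out, to 0.10. Calls of prox1b, tfap2e and onecutl were lost without control replicate 1 (log2 fold changes -1.88, -1.73 and -1.27, edgeR adjusted p = 0.159, 0.168 and 0.169). Without control replicate 2, prox1b passed (edgeR adjusted p = 0.0488) and tfap2e and onecutl did not (0.0638 and 0.0871). Without knockdown replicate 1, onecutl did not pass (edgeR adjusted p = 0.0810). The log2 fold change of tfap2e was -3.01 without knockdown replicate 2.

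A second list held 51 other tested regulators of amacrine and horizontal cells. Of these 13 fell (5.70% of all tested genes), 0 rose (2.37%) and 38 did not pass, with a median log2 fold change of -0.48. Before adjustment 21 were lower and 1 was higher at a p under 0.05 (17.9% and 12.9% of all tested genes), and DESeq2 called 16 lower and 1 higher (10% and 6.49% of all genes). From the scores limma called 15 lower and 0 higher with a pseudocount of 100 (6.56% and 2.86% of all genes). With 10 it called 11 lower and 0 higher (3.63% and 1.57%). The list is not specific to these cells. Isl1, among the 13 that fell, is also listed as a ganglion cell marker, and some others are also listed as retinal markers. The part of other cell types in these counts was not tested. Among the smallest p-values were those of neurod2, lmo4b and ebf3, with log2 fold changes of -3.59, -2.19 and -1.75 (edgeR adjusted p = 0.0207, 0.0208 and 0.0257). Neurod2 is a basic helix-loop-helix factor with few reads. It had 7 and 10 counts in knockdown replicates 1 and 2, and 116 and 106 in control replicates 1 and 2. The LIM-domain-only factor lmo4b was at 6.82 and 11.4 CPM in knockdown replicates 1 and 2 and 46.7 and 36.8 CPM in control replicates 1 and 2. Its knockdown libraries were both low and did not overlap the controls. Without control replicate 1 these 3 calls were lost (edgeR adjusted p = 0.159 for neurod2 and lmo4b, and 0.160 for ebf3). Without control replicate 2, neurod2 did not pass (edgeR adjusted p = 0.0516) and ebf3 lay at the threshold.

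Foxn4 and prdm13 are named here for their place next to ptf1a in the mouse, after their values were seen. Foxn4, a forkhead factor of progenitors, has 3 transcripts, which summed to 228 and 361 RPKM in knockdown replicates 1 and 2. They summed to 169 and 173 RPKM in control replicates 1 and 2. On the summed reads of the gene the log2 fold change was 0.82 (adjusted p = 0.0743 by edgeR). Its transcript with the smallest p also had the largest change. That transcript was at 25.1 and 44.5 CPM in the knockdown and 15.0 and 16.6 CPM in the control. Both knockdown libraries were above both controls, with a log2 fold change of 1.14 that did not pass (SE 0.30, adjusted p = 0.0605 by edgeR). Without knockdown replicate 1 it passed (1.51, edgeR adjusted p = 0.00398), whereas leaving out knockdown replicate 2 gave 0.67 (edgeR adjusted p = 0.226). Prdm13, a zinc finger factor of amacrine cells, was at 9.73 and 41.0 CPM in knockdown replicates 1 and 2 and at 81.2 and 64.5 CPM in control replicates 1 and 2. Replicate 1 was again the lowest library, and the log2 fold change of -1.52 did not pass (SE 0.55, adjusted p = 0.125 by edgeR). Without knockdown replicate 2 prdm13 passed (-2.90, edgeR adjusted p = 4.53e-05), whereas leaving out knockdown replicate 1 gave -0.81 (edgeR adjusted p = 0.229).

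Genes that amacrine and horizontal cells use once they differentiate were listed separately. The amacrine list held GABA and glycine genes, with some genes of other amacrine cells or of neurons in general, such as slc18a3a and elavl3. Of its 23 tested genes 8 fell (5.70% of all tested genes), 1 rose (2.37%) and 14 did not pass. Slc18a3a (log2 fold change -2.96, edgeR adjusted p = 0.0364) and elavl3 (-1.34, 0.0342) were among the 8. The list had a median log2 fold change of -1.31, against -0.06 over all tested genes. Before adjustment 11 were lower and 2 higher at a p under 0.05 (17.9% and 12.9% of all tested genes). DESeq2 called 10 lower and 1 higher (10% and 6.49% of all genes). On the scores limma called 8 lower and 1 higher with a pseudocount of 100 (6.56% and 2.86% of all genes). With 10 it called 7 lower and 1 higher (3.63% and 1.57%). The genes of this list with the smallest p were the glycine receptor subunit glra4b (-5.66), the calcium-binding proteins calb2a (-2.05) and calb2b (-4.81), and gad1b (-1.66), an enzyme of GABA synthesis (log2 fold changes, edgeR adjusted p = 0.0213, 0.0228, 0.0257 and 0.0244). Gad1b averaged 2.61 ± 0.154 CPM in the knockdown and 8.24 ± 0.271 CPM in the control (SD, n = 2 each). Its replicates were close in both groups, without the gap between knockdown libraries seen for tfap2a. Calb2a lacked that gap too, with a ratio of knockdown replicate 2 to replicate 1 of 0.852. Calb2b had a ratio of 7.77, at 0.525 and 4.08 CPM in knockdown replicates 1 and 2 and 89.9 and 41.8 CPM in control replicates 1 and 2. The gene that rose was slc6a9, a glycine transporter (1.11, edgeR adjusted p = 0.0406). It did not pass with knockdown replicate 1 left out (0.95, edgeR adjusted p = 0.113) or with control replicate 2 left out (0.98, edgeR adjusted p = 0.122). These calls too were lost without control replicate 1, where 0 of the list passed (edgeR adjusted p = 0.159 for glra4b, calb2a and gad1b, and 0.160 for calb2b). Without control replicate 2 calb2a passed (edgeR adjusted p = 0.0454), while glra4b, calb2b and gad1b did not (0.0508, 0.0582 and 0.0654). Leaving out knockdown replicate 2 put the log2 fold change of calb2b at -6.96, and leaving out knockdown replicate 1 or control replicate 1 put it at -4.00 or -4.13. The value of glra4b, at 0 and 0.0906 CPM in the knockdown and 3.34 and 1.99 CPM in the control, was -4.82 without knockdown replicate 1. With knockdown replicate 2 left out, glra4b had 0 counts in the knockdown.

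Of 6 tested horizontal cell genes 0 passed with edgeR, where 4 were lower before adjustment at a p under 0.05 (17.9% of all tested genes), DESeq2 called 3 lower (10% of all genes) and limma called 0. The median log2 fold change was -1.61, also with genes at 0 counts set to their bound. Nefm and nefl of this list are also among the ganglion cell markers. The connexin gene cx52.6, a gap junction gene of fish horizontal cells, had 0 and 0 counts in the knockdown libraries and 10 and 11 counts in the control libraries. With a floor of 3 counts over the knockdown group, and the control counts taken as exact, it was at least 6.49-fold lower in the knockdown. It did not pass (adjusted p = 0.0631 by edgeR), but passed on the summed reads of the gene (adjusted p = 0.0475 by edgeR). Megf10, megf11 and nefm had log2 fold changes of -1.10, -1.67 and -2.02 (edgeR adjusted p = 0.0737, 0.133 and 0.139). With knockdown replicate 2 left out megf10 and megf11 passed at -1.50 and -3.28 (edgeR adjusted p = 0.0192 and 0.000661), and with knockdown replicate 1 left out they were at -0.77 and -0.94 (edgeR adjusted p = 0.330 and 0.307). The value of nefm rested on control replicate 1, since the libraries were at 0.906 and 0.906 CPM in the knockdown and 6.47 and 0.922 CPM in the control, and it passed with control replicate 2 left out (-2.83, edgeR adjusted p = 0.0429).

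For each gene, those with the closest pattern over the 4 libraries were sought among 12170 genes averaging at least 2 CPM, by the root mean square difference of log2 CPM centred on its mean. With only 4 libraries this is a description. Tfap2a lay closest to pcdh1g26, a protocadherin, and sv2b, a synaptic vesicle gene (0.04 and 0.05 log2 units). For tfap2b these were atp1a3a, a sodium pump subunit, and ANKRD57 (3 of 3) (0.06 and 0.07), and for barhl2 sox4a and gpr137c (0.05 and 0.06). Prox1 lay closest to pde6g, a phototransduction gene, and ankrd33ba (0.02 and 0.07). The nearest genes of ptf1a, ankrd33ba and ndrg1l, were farther off (0.21 each). For lhx1a they were JMJD1C (2 of 2) and lmbrd2a (0.03 each), and for onecut1 WDR61 and agps (0.01 and 0.02). Among the 7 genes themselves, tfap2b and barhl2 differed least (0.22), followed by tfap2a and tfap2b (0.27) and by ptf1a and prox1 (0.28). Onecut1 and tfap2a differed most (1.98).

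Some of the 7 genes are also used outside the retina, and markers of other cells moved in the same libraries. Of 37 epidermis and cornea genes, a tissue that uses tfap2a, 23 fell (5.70% of all tested genes), 0 rose and 14 did not pass. Their summed level was 894 and 401 CPM in knockdown replicates 1 and 2, and 2599 and 2763 CPM in control replicates 1 and 2. Both sums in the knockdown were below both controls, with replicate 2 the lower. For tfap2a replicate 1 was the lower, and the part of epidermal cells in its values was not tested. Of 23 neural crest and pigment cell genes 0 passed with edgeR, DESeq2 or limma (before adjustment 2 were higher and 1 was lower at a p under 0.05), with summed levels of 834 and 1106 CPM in the knockdown and 915 and 938 CPM in the control.

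The lens also uses prox1. Of 48 lens genes 21 rose (2.37% of all tested genes), 0 fell (5.70%) and 27 did not pass. Their summed levels were 5166 and 3062 CPM in knockdown replicates 1 and 2 and 1464 and 1353 CPM in control replicates 1 and 2. Among genes of other retinal neurons, 14 of 32 photoreceptor genes and 10 of 25 ganglion cell genes fell. Of both lists 0 rose, where 5.70% of all tested genes fell and 2.37% rose. Photoreceptor genes summed to 89.1 and 411 CPM in knockdown replicates 1 and 2, and to 1148 and 854 CPM in control replicates 1 and 2. Ganglion cell genes summed to 212 and 408 CPM in the knockdown and to 963 and 723 CPM in the control. Their list shares nefm and nefl with the horizontal cell genes. It shares isl1, counted as fallen in both, with the other regulators. Of the listed photoreceptor genes 4 and 5 had 0 counts in knockdown replicates 1 and 2 and 0 did in the controls, while 0 ganglion cell genes were at 0 counts in any library. Before adjustment at a p under 0.05, and with DESeq2 and limma, 0 epidermis, photoreceptor and ganglion cell genes were higher and 0 lens genes were lower. DESeq2 called 25 epidermis, 17 photoreceptor and 13 ganglion cell genes lower (10% of all genes) and 27 lens genes higher (6.49%). With a pseudocount of 100 limma called 22, 14 and 11 lower (6.56%) and 21 higher (2.86%). With a pseudocount of 10 limma called 21, 11 and 5 lower (3.63%) and 17 higher (1.57%). The part of any of these cell types in the values of the 7 genes was not tested.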

How the data were processed

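Per the names of the deposited files, reads were aligned with bowtie to Ensembl release 66 zebrafish cDNA. The genome build was not given in the sources used here. Each library has a deposited table with raw counts of alignments per transcript and estimated counts that divide a read among the transcripts it matches, per the file headers. The authors' whole-series table holds a score close to 1000 times RPKM, from which transcript lengths were solved. The authors' comparison table gives log2 fold changes and adjusted p-values from DESeq, per the submitters' processing notes.

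Counts of 1 mate were tested with edgeR 4.0.16 in R 4.3.3 (quasi-likelihood F-test without a block, TMM, filterByExpr with a minimum count of 10). Benjamini-Hochberg adjusted p-values covered all 37012 tested transcripts, from 20875 genes, and 0.05 was the threshold. A read counts in each transcript it hits (1.89 to 2.01 hits per read), so near-identical paralogs may share reads. A gene was called if at least 1 transcript passed, and is represented by the one with the smallest p. SE is the absolute log2 fold change over the square root of F. DESeq2 1.42.0 and limma 3.58.1, the latter on log2 scores plus a pseudocount of 100 or 10, were alternatives. Estimated counts, used for the fits on split reads and on reads summed per gene, were rounded. The fit was also run on simulated data, with the same spread in both groups and independent transcripts. That does not check it where the knockdown libraries lie far apart or transcripts share reads. Per the labels the 2 libraries of a group are biological replicates.

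The 7 genes, the gene lists and the tests were chosen with earlier results of these data known. Named are the 7 genes, id2a, all tested paralogs, up to 4 genes per list by p, and the 2 nearest genes per member. Slc6a9, foxn4 and prdm13 were added after their values were seen. Slc18a3a, elavl3, nefl and isl1 were added to show what the lists hold. Markers of the retina and of other cells are given by counts and sums only, and 1 regulator that the rule names is not reported here. Of the symbols written, 13 of 16 paralogs, 56 of 69 regulators, 33 of 39 amacrine and 9 of 12 horizontal cell genes matched, some by synonyms in the RefSeq list. Same-numbered replicates did not deviate together (correlation across transcripts -0.0196).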

Additional observations from a re-analysis of the deposited data

How the results depend on the processing

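None of the 7 genes changed direction under any of the 14 alternative fits. The number of the 7 genes that passed, 3 as reported, was 5 with the replicate block, which added ptf1a (-1.68, edgeR adjusted p = 0.0487) and prox1 (-2.16, edgeR adjusted p = 0.0202). It ranged from 0 to 5 with 1 library left out, 0 without either control library and 5 without knockdown replicate 2. The replicate numbers carry no stated pairing. With the block 3651 of 37012 transcripts passed, against 2603 without it. Of the 7 genes 4 passed with DESeq2, with reads split over transcripts and at a threshold of 0.10, each adding onecut1. With no filter on low counts 4 passed too, with prox1 added, and with reads summed per gene 2 passed. The fits tested different numbers of amacrine and horizontal effector genes: 29 as reported, 26 with DESeq2, 41 with no filter and 34 without knockdown replicate 2. The count of paralogs and other regulators (16 of 63) ranged from 0 to 26, and that of amacrine and horizontal effector genes (9 of 29) from 0 to 13, being 14 with DESeq2. Over all transcripts 2603 passed, with 0 to 4910 when 1 library was left out, 5238 with DESeq2 (2086 higher and 3152 lower, against 762 and 1841 as reported), 5028 with no filter, 1607 genes with reads summed per gene, 1702 with limma at a pseudocount of 10 and 6023 at a threshold of 0.10. For the id2a transcript that did not have the smallest p, the log2 fold change of 0.13 was between -0.08, without control replicate 2, and 0.41, without control replicate 1. The causes were not tested. A fit without 1 library assumes that the lone library of its group varies like the other group.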
